A study of Mus musculus with 24 samples.

Results

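10 core chaperones and folding enzymes of the endoplasmic reticulum (ER) were followed in the brain and liver of mice lacking single tRNA-Phe genes. The genes were chosen by symbol, each symbol matched 1 Ensembl gene, and all 10 were found among the 55469 genes of the brain and of the liver table. Mice on a C57BL/6N background were wild-type (WT) or homozygous for a CRISPR-Cas9 deletion of 1 nuclear tRNA-Phe-GAA gene. The methods describe male mice, with both sexes in the behavioural tests, and the reporting summary gives both sexes and an age of 10 weeks. The sample titles give neither sex nor age. The knockout genotypes were the deletion of gene 1-1 (tRNA-Phe-1-1-/-), of gene 2-1 (tRNA-Phe-2-1-/-) and of gene 3-1 (tRNA-Phe-3-1-/-). The methods of the study describe WT mice matched for age and litter, and also state that mice came from different litters. In each tissue 1 WT group served all 3 knockout lines, and no litter is given per sample. The deleted genes encode phenylalanine tRNAs from 3 isodecoder groups, that is, tRNAs that share an anticodon and differ in the rest of the body. Each knockout line was made with a single guide RNA and carries its deletion in every cell, so differences between genotypes could not be assigned to 1 cell type. Total RNA from brain or liver was sequenced in 3 replicates per genotype, which gave 12 libraries per tissue. The values are normalised read counts per gene. The deleted tRNA genes have no row in these tables, so the genotype of a library could not be checked by its targeted gene.

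Proteins destined for membranes, secretion or the organelles of the secretory pathway fold in the ER. Hspa5 (BiP) is the Hsp70 chaperone of this compartment, and it binds and releases unfolded chains in an ATP-driven cycle that J-domain proteins such as Dnajb11 (ERdj3) and Dnajc3 (p58IPK) stimulate. Sdf2l1 binds Dnajb11. Hsp90b1 (GRP94) is the Hsp90 of the ER lumen. The lectin chaperones Calr (calreticulin, soluble) and Canx (calnexin, a membrane protein) hold newly made glycoproteins through their glucose-tagged sugar chains, and Pdia3 (ERp57) works with them as a disulfide isomerase. Pdia4 (ERp72) and Pdia6 (P5) are further disulfide isomerases, which form and rearrange disulfide bonds. When unfolded protein accumulates, the transcription factors Atf6 and Xbp1 raise many of these genes through the ER stress response element (ERSE) in their promoters. The liver, which secretes most plasma proteins, is rich in this machinery.

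The promoters are shown first because they carry a feature that 6 of the 10 genes share. Genes of this kind are known to hold the ERSE, so its share among them is a description and not a test. The ERSE was searched as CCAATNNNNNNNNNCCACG on both strands, in windows from 250 bases before to 50 bases after each RefSeq start site (GRCm38.p6). It was found in 6 of the 10 genes (60%), against 39 of all 32851 windows (0.119%). The matches are given in the reading direction of the motif, with its fixed letters in capitals. Positions are counted from 0 at the first transcribed base. The match lies at -65 to -47 in Hspa5, at -212 to -194 and -107 to -89 in Hsp90b1, at -162 to -144 in Calr, at -145 to -127 in Canx, at -98 to -80 in Pdia6 and at -105 to -87 in Dnajc3. The second Hsp90b1 match and the Calr match are on the strand opposite to the gene.
Hspa5: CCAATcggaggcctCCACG
Hsp90b1, upstream match: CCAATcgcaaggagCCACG
Hsp90b1, downstream match: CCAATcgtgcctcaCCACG
Calr: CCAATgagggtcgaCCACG
Canx: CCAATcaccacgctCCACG
Pdia6: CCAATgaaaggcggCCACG
Dnajc3: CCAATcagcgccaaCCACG

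Dnajb11 held instead the related element ERSE-II, searched as ATTGGNCCACG, at +7 to +17, a motif present in 12 of 32851 windows (0.0365%).
Dnajb11, ERSE-II: ATTGGcCCACG
Neither element was found in the windows of Pdia3, Pdia4 and Sdf2l1, which says only that these letters are not there. None of the 10 windows held the UPRE (TGACGTGG, 0.676% of all windows), the C/EBP-Atf response element (TGATGNAA, 3.97%) or the inverted heat shock unit GAANNTTC (7.86%). The last of these was found in 6 of 8 cytosolic heat shock genes with a window (75%).

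The 250 bases before the start site are printed for 3 genes that the results turn on, from RefSeq on GRCm38.p6. Hspa5 (chr2:34771840-34772089, + strand) holds 1 match, Hsp90b1 (chr10:86705445-86705694, - strand) holds 2 in opposite orientations, and Sdf2l1 (chr16:17132384-17132633, - strand) holds none. Capitals mark the fixed letters of the ERSE, which read CGTGG and ATTGG where the match is on the other strand.
Hspa5: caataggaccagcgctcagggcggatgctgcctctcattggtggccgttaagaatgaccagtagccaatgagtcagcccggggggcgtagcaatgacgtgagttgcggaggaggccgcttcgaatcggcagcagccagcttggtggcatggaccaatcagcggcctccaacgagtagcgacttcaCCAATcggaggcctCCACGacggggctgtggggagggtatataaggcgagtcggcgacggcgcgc
Hsp90b1: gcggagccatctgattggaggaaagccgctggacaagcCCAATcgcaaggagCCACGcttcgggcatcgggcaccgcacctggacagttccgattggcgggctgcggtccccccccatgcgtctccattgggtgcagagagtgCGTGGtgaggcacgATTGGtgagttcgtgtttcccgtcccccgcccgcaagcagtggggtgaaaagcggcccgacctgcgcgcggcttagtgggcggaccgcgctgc
Sdf2l1: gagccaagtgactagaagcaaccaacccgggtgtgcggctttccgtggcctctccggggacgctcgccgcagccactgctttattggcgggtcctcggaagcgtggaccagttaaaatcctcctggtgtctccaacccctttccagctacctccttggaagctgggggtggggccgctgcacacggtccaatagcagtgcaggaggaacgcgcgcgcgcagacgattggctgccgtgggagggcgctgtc

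**Figure D1:**
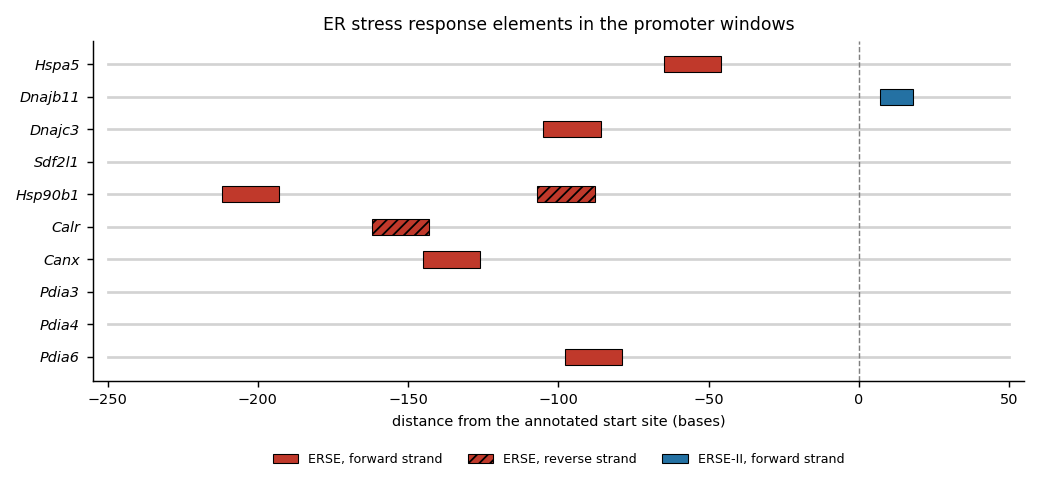
Position of the ERSE and ERSE-II matches in the promoter windows of the 10 genes, with distance from the start site in bases on the x axis and 1 line per gene. Matches lie between -212 and +17, and Pdia3, Pdia4 and Sdf2l1 have none.

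The genes lie on 8 chromosomes of GRCm38.p6. Hspa5 (chr2:34772090-34776529) and Pdia3 (chr2:121413902-121438687) share a chromosome, as do Sdf2l1 (chr16:17130138-17132383) and Dnajb11 (chr16:22857845-22879634). Phenylalanine codons made up between 2.26% of the coding sequence in Sdf2l1 (5 of 221 codons) and 5.74% in Pdia3 (29 of 505 codons). The median over 21395 coding transcripts was 3.757%, with an interquartile range of 2.756% to 5.072%.

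In WT brain, Canx had the highest level of the 10 per kilobase of coding sequence (8047 ± 145 normalised counts per kb, mean ± SD, n = 3). Calr (7321 ± 370), Hspa5 (4475 ± 452) and Hsp90b1 (3537 ± 58.7) followed it, and Dnajc3 (1620 ± 99.8), Dnajb11 (1470 ± 77.4) and Pdia4 (982 ± 121) stood lower. Sdf2l1 was the least abundant, at 425 ± 47.7 normalised counts per coding kb. Each gene in this order lay apart from its neighbour in all 3 samples except Pdia3 (2393 ± 112) and Pdia6 (2206 ± 85.2), which overlapped. In WT liver the order changed at the top: Calr led with 19388 ± 1550 normalised counts per coding kb, followed by Hspa5 (15088 ± 1276), Hsp90b1 (9684 ± 639) and Canx (9669 ± 303), of which the last 2 overlapped. Dnajc3 (6316 ± 484), Pdia6 (5953 ± 887) and Pdia4 (5747 ± 430) also overlapped with one another. Pdia3 had a mean of 7028 ± 99.3, and Dnajb11 (2689 ± 378) and Sdf2l1 (1541 ± 418) were again low. Reads were counted over the whole gene but divided by the coding length only. The transcripts used run from 1113 bases in Sdf2l1 to 5495 in Pdia4, with 4993 in Hspa5 and 2830 in Hsp90b1. Both orders therefore depend on the length used, and an order by full transcript length was not made. The tissues were normalised separately, so their levels were not compared by a test.

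**Figure D2:**
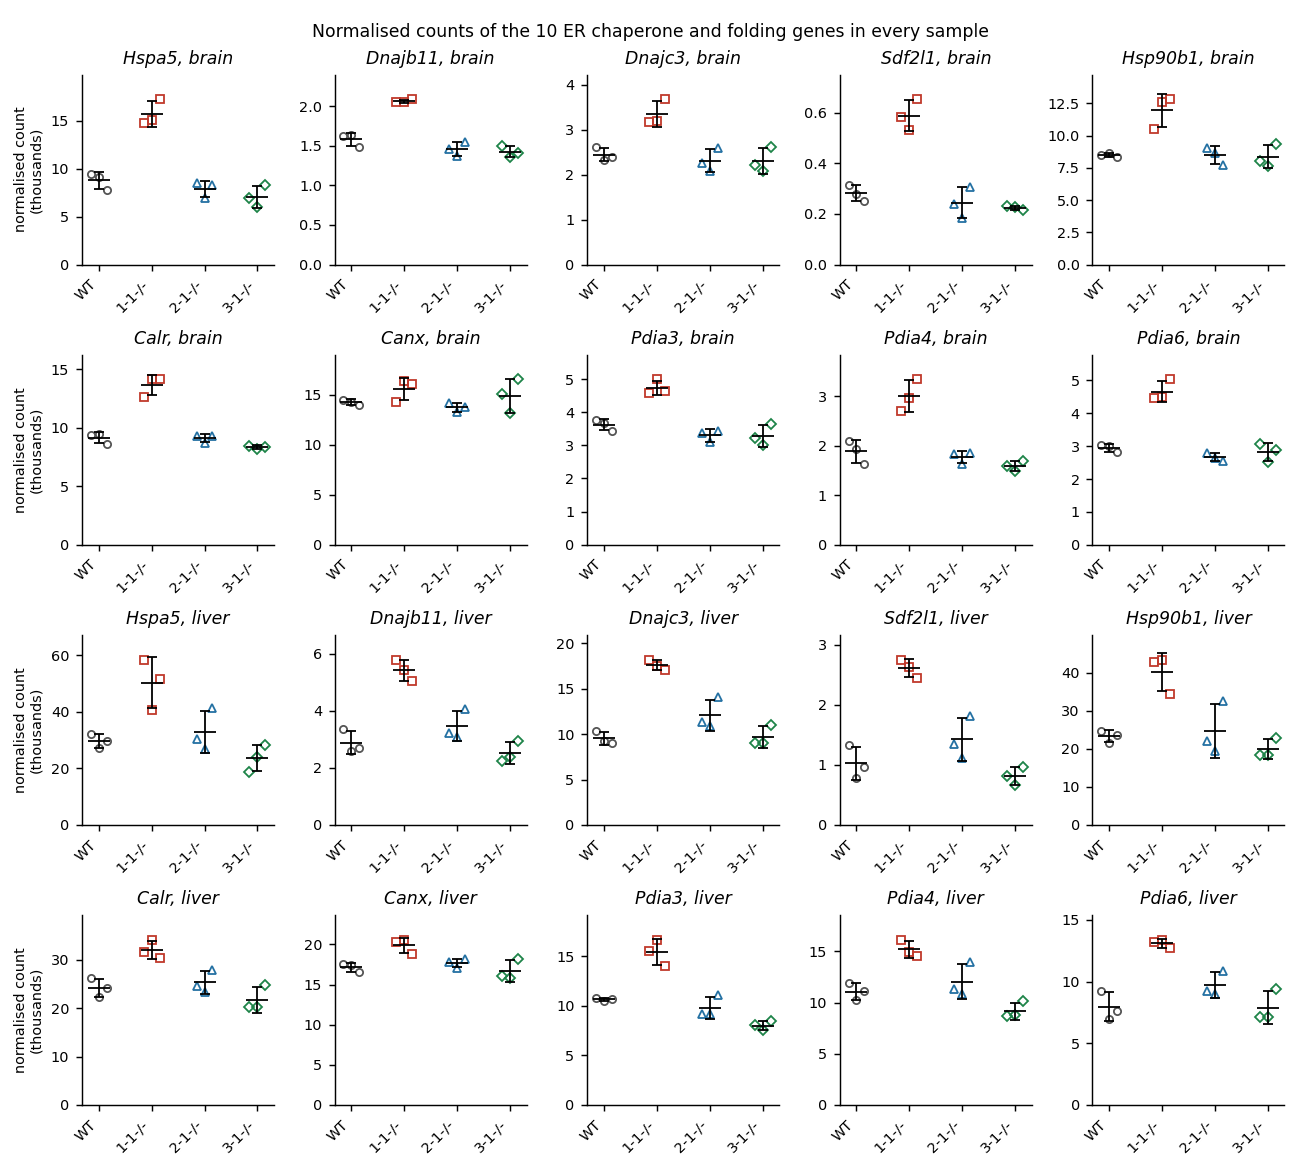
Normalised counts of the 10 genes in each library of brain and liver, by genotype, with points for libraries and bars for mean ± SD (n = 3). In both tissues the tRNA-Phe-1-1-/- libraries sit highest for most genes, and Canx differs least.

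Loss of tRNA-Phe-1-1 went with higher RNA of most of the 10 core ER chaperones in both tissues. In brain 7 of 10 rose against WT, against 0.624% of the 19228 genes tested that were called higher and 0.426% called lower, and in liver 9 of 10 rose, against 8.27% called higher and 9.08% called lower of 15856. No member was called lower. The members were chosen with earlier results of these data known, so these counts describe the list and are not an independent test of it. The median log2 difference of the 10 genes was 0.53 in brain and 0.74 in liver, where the median of all genes tested was within 0.01 of 0 and 95% of all genes lay below 0.61 in brain and below 0.88 in liver. All 3 knockout libraries lay above all 3 WT libraries for 9 genes in brain (12.8% of all genes) and for all 10 in liver (17.2%). Canx was the gene not called in either tissue, and in brain Pdia3 and Dnajc3 also missed the threshold. Differences are on the log2(normalised count + 1) scale, "called" means a two-sided adjusted p under 0.05 from limma over all genes tested, and p-values measure only the spread between these samples. An exact permutation test of 3 against 3 libraries cannot give a p below 0.1.

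Within the Hsp70 system, Hspa5 stood at 9448, 9147 and 7782 normalised counts in the 3 WT brains and at 14755, 15119 and 17260 in the tRNA-Phe-1-1-/- brains. All 3 knockout values lay far above the highest WT value. The difference was 0.84 ± 0.13 (log2, SE, 95% interval 0.56 to 1.12), a 1.79-fold higher level (adjusted p = 0.0198). In liver, where Hspa5 is more abundant, WT libraries gave 32075, 27069 and 29797 normalised counts and knockout libraries 58512, 40623 and 51810. Knockout replicate B was the lowest of the knockout livers and still exceeded every WT liver, and the difference was 0.75 ± 0.19 (adjusted p = 0.0202).

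Sdf2l1, the partner of Dnajb11, showed the largest difference of the 10 in both tissues. Its WT brain values were 315, 279 and 252 normalised counts and its tRNA-Phe-1-1-/- values 583, 531 and 653, which do not overlap. The brain difference was 1.06 ± 0.17 (95% interval 0.70 to 1.43, 2.09-fold, adjusted p = 0.0202). In liver the WT values spread widely, at 1323, 777 and 965, while the knockout values of 2750, 2629 and 2444 lay close together and well above them. The liver difference was 1.38 ± 0.21 (95% interval 0.92 to 1.84, 2.61-fold, adjusted p = 0.00142).

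Both J-domain co-chaperones were called in liver and 1 of them in brain, and the tissues were not tested against each other. Dnajc3 gave 10380, 9271 and 8998 normalised counts in WT liver and 18220, 17482 and 17088 in tRNA-Phe-1-1-/- liver. The groups are separated by a wide gap, and the difference was 0.88 ± 0.11 (adjusted p = 0.000607, the lowest of the 10 in liver). In brain, Dnajc3 ran from 2335 to 2620 in WT and from 3166 to 3678 in the knockout, without overlap, and the difference of 0.45 ± 0.11 was not called (adjusted p = 0.0805). Dnajb11 gave 3353, 2603 and 2707 in WT liver and 5802, 5435 and 5064 in the knockout liver, a difference of 0.92 ± 0.14 (adjusted p = 0.00128). In brain the 3 knockout libraries of Dnajb11 lay close together, at 2049, 2055 and 2085, above WT values of 1622, 1632 and 1483. That difference was 0.39 ± 0.07 (adjusted p = 0.0374).

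Hsp90b1 stood at 8504, 8654 and 8372 normalised counts in WT brain and at 10516, 12607 and 12819 in tRNA-Phe-1-1-/- brain. Replicate A was the lowest knockout brain but lay above every WT brain, and the difference of 0.49 ± 0.10 was just inside the threshold (adjusted p = 0.0480). In liver, WT values of 24562, 21588 and 23750 were set against knockout values of 42723, 43445 and 34343. All knockout livers were higher, with a difference of 0.78 ± 0.18 (1.72-fold, adjusted p = 0.0117).

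The lectin chaperones differed from each other. Calr, the soluble one, gave 9368, 9436 and 8605 normalised counts in WT brain and 12630, 14110 and 14110 in tRNA-Phe-1-1-/- brain. These groups do not overlap, and the difference of 0.57 ± 0.07 (adjusted p = 0.0103, 95% interval 0.43 to 0.72) was the one furthest past the threshold among the 10 in brain. Its liver difference was 0.41 ± 0.11 (1.32-fold, adjusted p = 0.0268), from a WT range of 22304 to 26171 and a knockout range of 30342 to 34135. Canx, the membrane-bound lectin chaperone, gave 14506, 14301 and 13996 in WT brain and 14284, 16370 and 16103 in the knockout brain. Replicate A of the knockout fell within the WT range, and the difference of 0.12 ± 0.09 (95% interval -0.07 to 0.32, adjusted p = 0.527) was not called. In liver the Canx ranges did not overlap, at 16527 to 17508 in WT and 18853 to 20577 in the knockout. The difference there was 0.21 ± 0.08 (adjusted p = 0.0839) and was also not called.

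Of the disulfide isomerases, Pdia6 was the most clearly separated in brain, with WT values of 3027, 2992 and 2815 normalised counts and tRNA-Phe-1-1-/- values of 4455, 4490 and 5031. The difference was 0.66 ± 0.08 (1.58-fold, adjusted p = 0.0114). In liver its WT values of 9263, 6970 and 7608 were more scattered than its knockout values of 13184, 13382 and 12688, and the difference was 0.73 ± 0.13 (adjusted p = 0.0037). Pdia4 showed a similar size of difference in brain, 0.67 ± 0.11 (adjusted p = 0.0218), from WT values of 2099, 1926 and 1638 and knockout values of 2706, 2962 and 3340. The highest WT brain was far below the lowest knockout brain for both isomerases. The liver difference of Pdia4 was 0.46 ± 0.11 (adjusted p = 0.0141), from a WT range of 10208 to 11861 and a knockout range of 14558 to 16124. Pdia3, the partner of the lectin chaperones, stood at 3761, 3679 and 3435 in WT brain and at 4584, 4988 and 4637 in the knockout brain. The ranges were apart, but the difference of 0.39 ± 0.08 missed the threshold (adjusted p = 0.0527). In liver it passed, with 10807, 10508 and 10628 in WT, 15532, 16644 and 13991 in the knockout and a difference of 0.53 ± 0.09 (adjusted p = 0.0034).

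**Figure D3:**
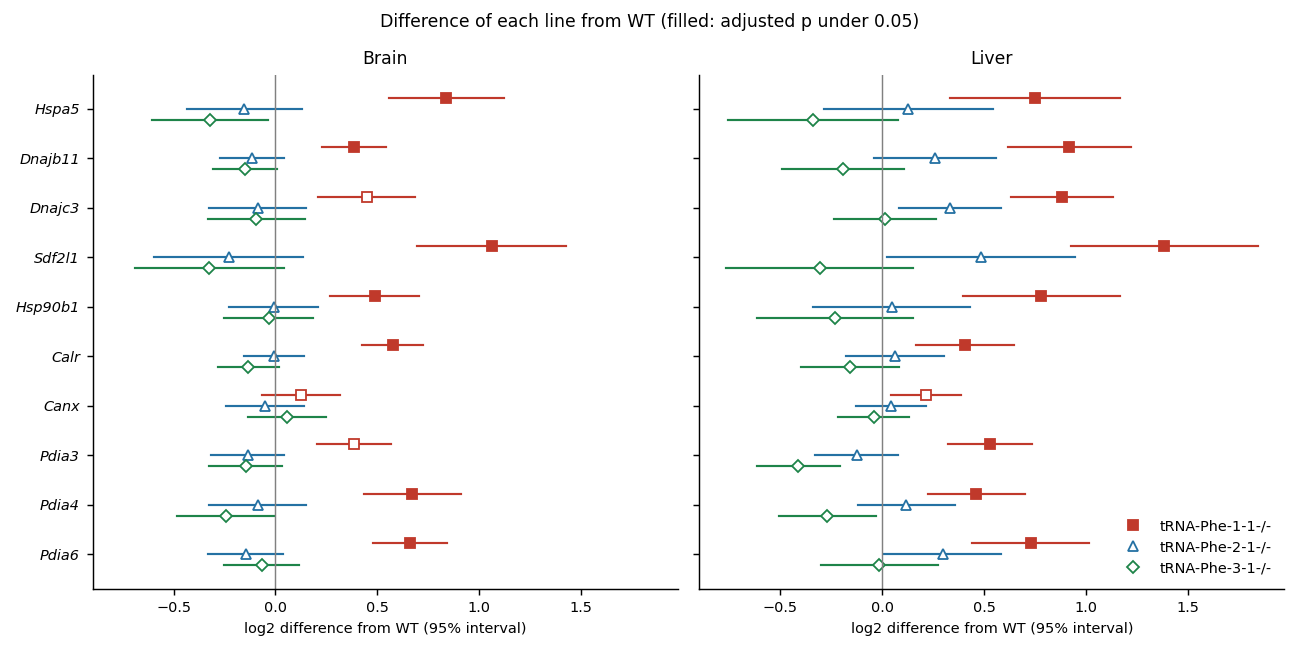
Log2 difference of each gene between genotypes, with bars for 95% intervals and filled points for adjusted p under 0.05. In tRNA-Phe-1-1-/- against WT, Sdf2l1 lies farthest right in both tissues (1.06 and 1.38) and Canx nearest 0 (0.12 and 0.21).

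How many members passed in brain rested on single libraries, whereas their differences moved little. Leaving out WT replicate B or tRNA-Phe-1-1-/- replicate B left 2 members called, and leaving out WT replicate C or tRNA-Phe-1-1-/- replicate C left 0 called in limma, with 9 members at an unadjusted p under 0.05 in each of these fits. Over all genes, calls in brain fell from 202 to 5 without WT replicate C and to 9 without tRNA-Phe-1-1-/- replicate C. The median difference of the 10 genes stayed between 0.49 and 0.60 when any 1 brain library was left out, and all 10 remained above 0. With all libraries, edgeR called 7 and DESeq2 called 9 members in brain. DESeq2 also called more genes in all, 874 against the 202 of limma. In liver, 6 members were called without WT replicate B and 6 without tRNA-Phe-1-1-/- replicate A. Across 24 alternative settings Calr and Pdia6 were called in brain in 22, Hspa5 and Sdf2l1 in 20, Pdia4 in 19, Dnajb11 in 13 and Hsp90b1 in 11. In liver, Sdf2l1, Dnajb11, Dnajc3, Hsp90b1, Pdia3 and Pdia6 were called in all 24.

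The tRNA-Phe-1-1-/- mice were then set against the other knockouts, which asks whether the level depends on which tRNA-Phe gene was deleted. In brain, 7 of 10 members were higher than in tRNA-Phe-2-1-/- (0.395% of all genes were called higher) and 9 of 10 were higher than in tRNA-Phe-3-1-/- (1.41%). All 3 tRNA-Phe-1-1-/- brains exceeded all 3 tRNA-Phe-2-1-/- brains for every member (11.2% of all genes) and all 3 tRNA-Phe-3-1-/- brains for 9 members (12.4%), the exception being Canx. The brain differences from tRNA-Phe-2-1-/- were largest for Sdf2l1 (1.29 ± 0.17) and Hspa5 (0.99 ± 0.13), and Pdia6 had the lowest adjusted p (0.81 ± 0.08, adjusted p = 0.00408). Those from tRNA-Phe-3-1-/- were again largest for Sdf2l1 (1.39 ± 0.17, 2.62-fold) and Hspa5 (1.16 ± 0.13), followed by Pdia4 (0.92 ± 0.11). Canx was called in neither (0.18 ± 0.09 and 0.07 ± 0.09), nor were Hsp90b1 and Dnajc3 against tRNA-Phe-2-1-/- (adjusted p = 0.0554 for each). Against tRNA-Phe-2-1-/-, leaving out tRNA-Phe-1-1-/- replicate B or C left 4 or 2 members called, and leaving out tRNA-Phe-2-1-/- replicate A or B left 4 or 3.

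In liver, 7 of 10 members were higher in tRNA-Phe-1-1-/- than in tRNA-Phe-2-1-/- (7.37% of all genes) and all 10 were higher than in tRNA-Phe-3-1-/- (7.45%). The libraries did not overlap for 9 members against tRNA-Phe-2-1-/- (18.4% of all genes) and for all 10 against tRNA-Phe-3-1-/- (15.5%). Sdf2l1 was 3.23-fold higher than in tRNA-Phe-3-1-/- liver (1.69 ± 0.21, adjusted p = 0.000633), and Pdia3 had the lowest adjusted p (0.94 ± 0.09, adjusted p = 0.000202). Dnajb11 (1.11 ± 0.14), Hspa5 (1.09 ± 0.19) and Hsp90b1 (1.01 ± 0.18) also differed by more than 1 log2 unit, and Canx passed here with 0.26 ± 0.08 (adjusted p = 0.0466), a call found in 8 of 24 alternatives and lost with a replicate block (adjusted p = 0.0854). Calr (0.34 ± 0.11, adjusted p = 0.0556), Pdia4 (0.34 ± 0.11, adjusted p = 0.0519) and Canx (0.17 ± 0.08, adjusted p = 0.165) missed the threshold against tRNA-Phe-2-1-/-. Hspa5 was the member that overlapped, since tRNA-Phe-2-1-/- replicate C (41236 normalised counts) lay above tRNA-Phe-1-1-/- replicate B (40623). Leaving out tRNA-Phe-1-1-/- replicate A, or tRNA-Phe-2-1-/- replicate A or B, left 3, 4 and 3 members called against tRNA-Phe-2-1-/-.

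Limma called no member in tRNA-Phe-2-1-/-, nor in tRNA-Phe-3-1-/-, against WT in either tissue. In brain, limma called 0 of the 10 in each (0% of all genes), with 0 and 2 members at an unadjusted p under 0.05, and edgeR and DESeq2 also called 0. Of all 19228 genes tested, 1071 and 2373 had an unadjusted p under 0.05. The tRNA-Phe-2-1-/- brains ran slightly low, with a median difference of -0.10 and no member above 0. Their largest difference was -0.23 ± 0.17 for Sdf2l1 (95% interval -0.60 to 0.14), and Pdia6 alone did not overlap with WT (11.4% of all genes), at 2790, 2638 and 2558 against a WT minimum of 2815. The tRNA-Phe-3-1-/- brains had a median difference of -0.14, and Canx was the 1 member above 0. Hspa5 gave 6938, 5975 and 8305 normalised counts there, a difference of -0.32 ± 0.13 from WT (95% interval -0.61 to -0.04, adjusted p = 0.346). Calr and Sdf2l1 lay below WT in every tRNA-Phe-3-1-/- brain (8.48% of all genes). The 3 comparisons against WT within a tissue share the same WT libraries, so a low or high WT library moves all of them.

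In liver the 2 genotypes leaned to opposite sides of WT without passing the test. The tRNA-Phe-2-1-/- livers had a median difference of 0.12 with 9 members above 0. Limma called 0 (0.132% of all genes) with 3 at an unadjusted p under 0.05 (2365 of all 15856 genes), edgeR called 0 and DESeq2 called 0. Dnajc3 was the member whose 3 libraries, at 11320, 10848 and 14061 normalised counts, all exceeded WT (25.4% of all genes did not overlap in either direction), and its difference was 0.33 ± 0.11 (adjusted p = 0.231). The tRNA-Phe-3-1-/- livers had a median difference of -0.21 with 1 member above 0. Limma called 0 (0.883% of all genes) with 2 members at an unadjusted p under 0.05 (2550 of all 15856 genes). Both were disulfide isomerases whose libraries all lay below WT (10.1% of all genes). Pdia3 gave 8020, 7558 and 8443 normalised counts (-0.41 ± 0.09, adjusted p = 0.0667 in limma, 0.0725 in edgeR and 0.003 in DESeq2), and Pdia4 gave 8644, 8739 and 10128 (-0.27 ± 0.11, adjusted p = 0.25). DESeq2 thus called 1 member lower and edgeR called 0.

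A direct comparison of tRNA-Phe-2-1-/- with tRNA-Phe-3-1-/- gave 0 called members in both tissues by limma, edgeR and DESeq2 (0% of all genes in limma). In brain the median difference was 0.03 with 0 members at an unadjusted p under 0.05 (1910 of all 19228 genes). In liver all 10 members were higher in tRNA-Phe-2-1-/- (median 0.31) and 7 had an unadjusted p under 0.05 (1059 of all 15856 genes), but the lowest adjusted p was 0.644. Sdf2l1 differed most (0.79 ± 0.21, 95% interval 0.33 to 1.25). Its libraries did not overlap, nor did those of Pdia3, Pdia4 and Dnajb11 (5.95% of all genes). Over the 4 genotypes together, an F-test found a difference for 7 members in brain (0.634% of all genes passed) and for 9 in liver (17%). Hsp90b1 (adjusted p = 0.0599), Dnajc3 (adjusted p = 0.074) and Canx (adjusted p = 0.54) did not pass in brain, and Canx (adjusted p = 0.115) did not pass in liver.

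The libraries of a genotype were not alike, and the members tended to be high or low together within a library. Averaged over the 10 genes, the log2 deviation of a library from the tissue mean was 0.40, 0.48 and 0.57 in the tRNA-Phe-1-1-/- brains, and replicate C was the highest library for 7 members. WT brains lay between -0.17 and -0.01, tRNA-Phe-2-1-/- brains between -0.29 and -0.11 and tRNA-Phe-3-1-/- brains between -0.34 and -0.12. The tRNA-Phe-3-1-/- replicate B was the lowest brain for 9 members. In liver the tRNA-Phe-1-1-/- libraries gave 0.61, 0.55 and 0.46, again above every other library. Replicate C of tRNA-Phe-2-1-/-, at 0.24, was the next highest and stood apart from the other tRNA-Phe-2-1-/- livers (-0.07 and -0.17). The WT livers gave -0.02, -0.29 and -0.20, and the tRNA-Phe-3-1-/- livers -0.47, -0.46 and -0.17.

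**Figure D4:**
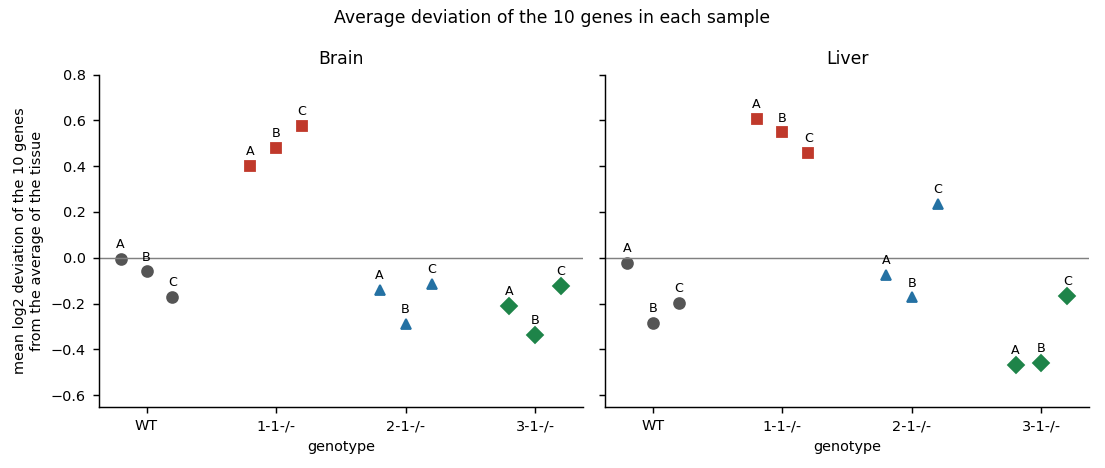
Log2 deviation of each library from the tissue mean, averaged over the 10 genes, by genotype, with letters for replicates. The tRNA-Phe-1-1-/- libraries lie between 0.40 and 0.61, above all others, and the next highest is tRNA-Phe-2-1-/- liver replicate C at 0.24.

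Other genes of ER folding were described by their counts and medians, with no test against the core chaperones. In tRNA-Phe-1-1-/- against WT, 0.624% of all genes were called higher and 0.426% lower in brain, and 8.27% and 9.08% in liver. An unadjusted p under 0.05 was found for 3063 of 19228 genes in brain. Of 28 further ER folding factors, 0 were called in tRNA-Phe-1-1-/- brain (median difference 0.07), with 6 at an unadjusted p under 0.05, 0 called by edgeR and 3 by DESeq2. The lowest adjusted p there belonged to Manf (0.67, adjusted p = 0.052), Creld2 (0.71, adjusted p = 0.067) and Cdnf (-0.79, adjusted p = 0.0743). Manf and Creld2 are secreted or resident ER stress proteins. In liver 9 of 27 tested were higher and 1 lower (median 0.28). Creld2 rose by 2.11 ± 0.35 (adjusted p = 0.00216), Hyou1, the nucleotide exchange factor of Hspa5, by 1.07 ± 0.21 (adjusted p = 0.00603), and Tmx1, a membrane-bound disulfide isomerase relative, by 0.37 (adjusted p = 0.00711). The gene that fell was Cdnf (-1.42, adjusted p = 0.0479), singled out after its value was seen and not called in 16 of 24 alternatives. Without WT replicate B, WT replicate C or tRNA-Phe-1-1-/- replicate A, 5 of these genes were called higher in liver.

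The sensors and transcription factors of the unfolded protein response gave 1 call of 7 in brain, Xbp1 (0.44, adjusted p = 0.0393), which was lost in 11 of 24 alternatives. Atf6b (0.28) and Mbtps2 (-0.24) came next and were not called. In liver 2 of 7 rose, Atf6 (0.45, adjusted p = 0.00364) and Xbp1 (0.62, adjusted p = 0.00619), while Atf6b (-0.14, adjusted p = 0.334) was not called. Of all genes tested, 0.624% were called higher and 0.426% lower in brain, and 8.27% and 9.08% in liver. Degradation of misfolded ER proteins gave 1 of 12 in brain, Derl3, a derlin of the retrotranslocation machinery (1.86, adjusted p = 0.0218), which was not called without WT replicate B or C or tRNA-Phe-1-1-/- replicate B or C. Derl2 (0.33, adjusted p = 0.0765) and Herpud1 (0.48, adjusted p = 0.0769) did not pass. In liver 4 of 12 were called, Derl3 (4.21, adjusted p = 0.00164), Edem3 (0.63, adjusted p = 0.0106), Herpud1 (1.28, adjusted p = 0.0121) and, named because it completes this count, the ubiquitin ligase Syvn1 (0.81, adjusted p = 0.0167). Without tRNA-Phe-1-1-/- replicate A the liver count was 2.

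The Atf4 arm, which answers amino acid shortage and other stresses, gave 1 of 12 in brain and 2 of 11 in liver. Among all genes, 0.624% were called higher and 0.426% lower in brain, and 8.27% and 9.08% in liver. The brain call was Ddit4 (0.94, adjusted p = 0.0376), lost without any 1 of WT replicates A, B and C, tRNA-Phe-1-1-/- replicates B and C, tRNA-Phe-2-1-/- replicates A and B and tRNA-Phe-3-1-/- replicate A. Atf4 itself was not called (0.27, adjusted p = 0.157), nor was Nupr1 (0.79, adjusted p = 0.169). The liver calls were Sesn2 (0.64, adjusted p = 0.0147) and Chac1 (1.11, adjusted p = 0.0474), both lost without WT replicate B or C. Ddit4 in liver was not called (1.04, adjusted p = 0.0981).

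Chaperones of the cytosol and of mitochondria were counted in the same way. The shares of all genes called were 0.624% higher and 0.426% lower in brain, and 8.27% and 9.08% in liver. Of 11 cytosolic heat shock chaperones, 5 rose in tRNA-Phe-1-1-/- brain (median 0.51), with Dnajb1 (0.62, adjusted p = 0.0155), Hspa1b (1.28, adjusted p = 0.016) and Hsph1 (0.51, adjusted p = 0.0314) having the lowest adjusted p, and Hspb1 and Dnaja1 making up the count. It fell to 0 without WT replicate B, WT replicate C or tRNA-Phe-1-1-/- replicate C, to 2 without tRNA-Phe-1-1-/- replicate B, and to 3 without WT replicate A, tRNA-Phe-2-1-/- replicate A or tRNA-Phe-3-1-/- replicate A. In liver 10 of 11 rose (median 0.98), led by Hspb1 (2.50, adjusted p = 5.38e-05), Hsph1 (1.53, adjusted p = 0.000508) and Hsp90aa1 (1.08, adjusted p = 0.0011), and Hspa1a did not pass (adjusted p = 0.107). Hspa1a and Hspa1b are near-identical copies whose reads may be split between them. Mitochondrial chaperones and proteases gave 0 of 6 in brain by limma and edgeR and 2 by DESeq2, with 2 at an unadjusted p under 0.05. There Hspd1 (0.34, adjusted p = 0.0841) and Hspe1 (0.56, adjusted p = 0.0945) came closest, followed by Trap1 (0.05, adjusted p = 0.779). In liver Hspe1 was the 1 of 6 called (0.48, adjusted p = 0.00255), ahead of Clpp (0.21, adjusted p = 0.0613) and Lonp1 (-0.17, adjusted p = 0.104). In the other knockouts, limma and edgeR called 0 genes of these 6 lists against WT in either tissue. DESeq2 called 0 of 76 in tRNA-Phe-2-1-/- brain, 1 in tRNA-Phe-3-1-/- brain, and 3 and 5 of 74 in the livers. In the same order, 6, 9, 12 and 14 genes of these lists had an unadjusted p under 0.05 in limma. Over all genes, 1071 and 2373 of 19228 in brain and 2365 and 2550 of 15856 in liver did.

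**Figure D5:**
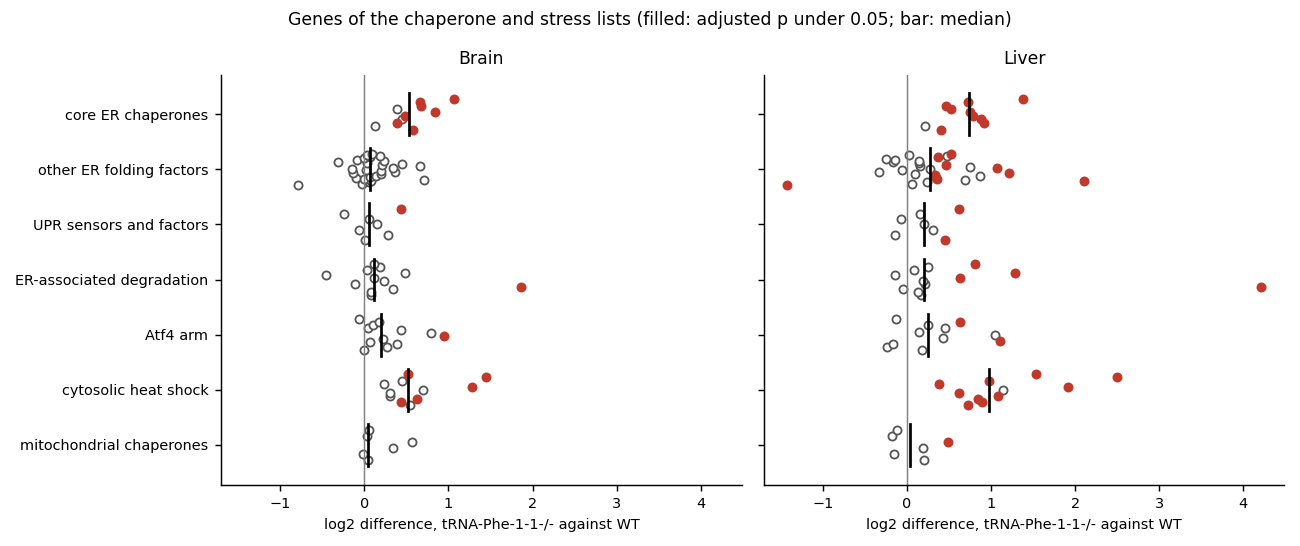
Log2 difference of every gene of the core ER chaperones and of the 6 chaperone and stress lists in tRNA-Phe-1-1-/- against WT, in brain and liver, with points for genes and a bar for the list median. Of the lists plotted, the core ER chaperones have medians of 0.53 and 0.74 and the cytosolic heat shock chaperones 0.51 and 0.98, and the others have medians under 0.3.

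Genes with and without an ERSE match were among those that rose. Of the 6 core chaperones with an ERSE, 4 were called higher in brain and 5 in liver, with medians of 0.53 and 0.74. Sdf2l1 and Pdia4, with neither ERSE nor ERSE-II in their windows, were called in both tissues, as was Dnajb11, which has ERSE-II only. Outside the core chaperones, 14 genes with an ERSE in their window were tested in brain and 1 was called higher, Derl3 (median 0.13, against 0.624% of all genes called higher). In liver 15 were tested, Creld2, Derl3 and Syvn1 were called higher and Acacb and Pan2 lower (median 0.06), the last 2 named after their values were seen. Of all genes tested in liver, 8.27% were called higher and 9.08% lower.

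Cell type markers were checked because a bulk level cannot tell fewer cells of a type from less RNA per cell. Over all genes, tRNA-Phe-1-1-/- against WT gave 0.624% called higher and 0.426% lower in brain, and 8.27% and 9.08% in liver. An unadjusted p under 0.05 was found for 3063 of 19228 genes in brain and 5044 of 15856 in liver. The summed level of 5 neuron markers ran from 110453 to 133609 normalised counts in WT brain and from 100585 to 122313 in tRNA-Phe-1-1-/- brain. Of these, 0 were called by limma, edgeR or DESeq2 and 0 had an unadjusted p under 0.05. The sum of 6 hepatocyte markers was 2643830 to 3069760 in tRNA-Phe-1-1-/- liver, below the WT range of 3219680 to 3881580. It was close to that of tRNA-Phe-2-1-/- liver (2843190 to 3088680). Limma called 0 of 6 (1 at an unadjusted p under 0.05), edgeR 1 and DESeq2 2. Alb made up most of this sum (log2 difference from WT -0.48). The other markers differed by -0.37 (Ttr), -0.21 (Cps1), -0.10 (Apoa1), -0.03 (Apob) and 0.07 (Serpina1a). In brain the sum of 6 oligodendrocyte markers was lower in all 3 tRNA-Phe-1-1-/- libraries (36737 to 67812) than in WT (95561 to 112748), and 1 of 6 was called, Opalin (-2.19, adjusted p = 0.0256). Of the other knockout brains, 2 of tRNA-Phe-2-1-/- (53272 and 66801) and 1 of tRNA-Phe-3-1-/- (64562) fell within the tRNA-Phe-1-1-/- range. The sum of 5 choroid plexus markers varied most, from 627 to 13097 in WT, 191 to 568 in tRNA-Phe-1-1-/-, 189 to 52579 in tRNA-Phe-2-1-/- and 172 to 26495 in tRNA-Phe-3-1-/- brain. In tRNA-Phe-1-1-/- against WT, limma called 0 of 5 (2 at an unadjusted p under 0.05), edgeR 0 and DESeq2 1. The sum of 5 erythroid markers was also lower in tRNA-Phe-1-1-/- brain (7588 to 9630) than in WT brain (15395 to 28255), where limma and edgeR called 0 of 5, DESeq2 called 4 and 5 had an unadjusted p under 0.05. The sum of 4 endothelial markers was 2241 to 2262 in tRNA-Phe-1-1-/- brain against 2624 to 2952 in WT brain, and the tight junction gene Cldn5 was called (-0.54, adjusted p = 0.016). In liver 1 of these 4 was called higher and 2 lower, with overlapping sums of 3864 to 4752 and 4522 to 5700. In liver, neutrophil markers were higher in every tRNA-Phe-1-1-/- library (sums of 69.6 to 220 against 7.82 to 34.6, 2 of 2 tested called) and 4 of 5 erythroid markers were lower (sums of 11566 to 13840 against 19732 to 26031). Of 8 pancreatic acinar markers, whose cells are rich in ER chaperones, Amy2a5, Cpa1, Cpb1, Pnlip and Prss2 had a mean under 1 in liver and 0 of the 2 tested were called by any of the 3 tools or had an unadjusted p under 0.05. Plasma and B cell markers, a list that includes Derl3, gave 2 higher and 1 lower of 6 in liver. The part of the oligodendrocyte, choroid plexus, erythroid, endothelial, hepatocyte, neutrophil and B cell markers in the chaperone differences was not tested.

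Several other responses moved in the tRNA-Phe-1-1-/- libraries together with the chaperones. Against WT, 0.624% of all genes were called higher and 0.426% lower in brain, and 8.27% and 9.08% in liver. Of 8 glucocorticoid-responsive genes, 6 rose in brain and 6 in liver. Fkbp5, a cochaperone of the glucocorticoid receptor, was higher by 1.54, Plin4 by 3.25 and Mt2 by 1.00 in brain, and Fkbp5 by 2.18, Mt2 by 5.79 and Errfi1 by 1.53 in liver. The summed level of this list was 12771 to 17527 normalised counts in tRNA-Phe-1-1-/- brain against 7284 to 7934 in WT, and 57648 to 71060 against 15141 to 36628 in liver, without overlap in either tissue. In liver 9 of 9 acute phase genes tested rose, among them Hp by 1.64, Saa1 by 5.19 and Socs3 by 2.51, with sums of 408009 to 736847 against 236913 to 249145. In brain 1 of 4 was called, Lcn2 (5.30), ahead of Fgb (-0.80, adjusted p = 0.815) and Hp (0.15, adjusted p = 0.953). Clock genes of the Dbp and Per group gave 7 of 10 higher in liver (Ciart by 5.46, Per1 by 3.76 and Dbp by 5.23) and 2 of 10 in brain (Per2 by 1.00 and Per3 by 0.44), where Ciart was next (0.84, adjusted p = 0.0608). In brain 7 of these 10 had an unadjusted p under 0.05, edgeR called 2 and DESeq2 called 4. All 5 genes of the Bmal1 group were called lower in liver, led by Npas2 (-5.30), Bmal1 (-3.29) and Clock (-0.60). In brain 0 of 5 were called by limma, edgeR or DESeq2 and 0 had an unadjusted p under 0.05, with Nfil3 (0.13), Cry1 (0.14) and Clock (-0.06) having the lowest adjusted p. In tRNA-Phe-3-1-/- liver the sum of the Dbp and Per group was also above WT in every library (6225 to 15368 against 3504 to 5596). For this group limma and edgeR called 0 of 10 there (5 at an unadjusted p under 0.05) and DESeq2 called 4. For the Bmal1 group limma and edgeR called 0 of 5 there (4 at an unadjusted p under 0.05) and DESeq2 called 3, with a median difference of -1.18. The time of day of collection is not given per sample, and the part of all these responses in the chaperone differences was not tested.

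Recovered read totals ran from 30365760 to 46225360 per brain library and from 32276896 to 51584522 per liver library. No pair of replicates agreed within sampling noise (chi-square per degree of freedom of 13.1 or more), so all were counted as separate samples.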

How the data were processed

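RNA-seq of brain and liver from 4 genotypes (3 libraries each) was analysed per tissue. The authors trimmed reads (Trim Galore, cutadapt), aligned them with STAR to GRCm38.p6 masked for nuclear mitochondrial sequences, quantified them with strand-aware Salmon against GENCODE annotation with sequence and GC bias correction, and imported them with tximport. The deposited signal values are read counts per gene divided by DESeq2 size factors, computed separately for each tissue. The deposited comparison tables (mean signal, log2 fold changes, their errors and s-values) were not used. Whole reads were recovered from the deposited normalised counts for 100% of values within 0.01 of a whole number.

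Genes that averaged 10 or more normalised counts over the 12 libraries of a tissue (19228 in brain, 15856 in liver) were tested on log2(value + 1) with limma 3.58.1 (R 4.3.3) with a variance trend. All 4 genotypes shared 1 fit, without a replicate term. Tests were two-sided, and p-values were adjusted by Benjamini-Hochberg over all genes tested (threshold 0.05). edgeR 4.0.16 and DESeq2 1.42.0 on the recovered reads, other filters, pseudocounts and scalings, a replicate block and leaving out each library were alternatives. Symbols were matched through Ensembl identifiers (51679 of 55434 identifiers, 93.2%), promoters through RefSeq symbols. Of each pathway and response list besides the 10 chaperones, the 3 genes with the lowest adjusted p in tRNA-Phe-1-1-/- against WT were named in each tissue. Single cell type markers, and genes that complete a count, were named after their values were seen. The members and the lists were chosen with earlier results of these data known. The fit was tested on simulated data before use.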

Additional observations from a re-analysis of the deposited data

How the results depend on the processing

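Counts and differences between genotype pairs were recomputed under 24 alternatives, and the F-test over 4 genotypes under 9 of them (no library left out), where 5 to 7 members passed in brain and 9 to 10 in liver. Of 2880 recomputed differences of single members, 2713 stayed on the same side of the threshold, 139 lost their call and 28 gained one. Among the 2713, 40 that were called in neither fit changed sign, and 0 called differences did. With only the 2 groups compared in the fit, 4 members were called in brain for tRNA-Phe-1-1-/- against WT, 2 against tRNA-Phe-2-1-/- and 3 against tRNA-Phe-3-1-/-, from fewer samples for the spread. DESeq2 called 1 member in tRNA-Phe-3-1-/- liver against WT, and the cause was not tested. With 1 library left out, members called ranged from 0 to 9 for tRNA-Phe-1-1-/- against WT, 2 to 9 against tRNA-Phe-2-1-/- and 6 to 9 against tRNA-Phe-3-1-/- in brain, and from 6 to 9, 3 to 9 and 9 to 10 in liver, and stayed at 0 in the other comparisons. All genes called in brain tRNA-Phe-1-1-/- against WT numbered 874 with DESeq2, 103 without the variance trend and 95 without the filter, against 202.

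Same-letter libraries did not deviate together in every pair of genotypes (correlations of deviations from -0.294 to 0.492 over letters and tissues), so the letters were not taken as pairs. With a replicate block, Hsp90b1 (adjusted p = 0.0736) and Dnajb11 (adjusted p = 0.0554) lost and Dnajc3 (adjusted p = 0.0486) gained its call in brain against WT, leaving 6 members called. Dnajc3 gained its call in brain against tRNA-Phe-2-1-/- (adjusted p = 0.0358), and in liver Pdia6 against tRNA-Phe-2-1-/- (adjusted p = 0.0533) and Canx against tRNA-Phe-3-1-/- (adjusted p = 0.0854) lost theirs. No other member changed its call.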

Other observations

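The genes whose levels followed the core chaperones most closely were ranked by Pearson's r with the mean log2 deviation of the 10 genes over the 12 libraries of a tissue, among genes averaging 50 or more normalised counts. These values are descriptions, since the libraries share genotypes and the large tRNA-Phe-1-1-/- difference, so r over the 9 other libraries is given beside each. In brain, 15043 genes were compared. Manf, an ER-resident and secreted stress protein, came first (r = 0.976, 0.909 over the 9 other libraries). It was followed by the cochaperone Stip1 (0.974 and 0.729), the lipid droplet protein Plin4 (0.972 and 0.677), the cytosolic Hsp70 Hspa8 (0.962 and 0.804), the mitochondrial carrier Slc25a25 (0.961 and 0.901), Wfdc1 (0.961 and 0.885), Creld2 (0.96 and 0.852) and the Hsp90 cochaperone Ahsa1 (0.958 and 0.714). In liver, 12372 genes were compared and Morf4l2 came first (0.979 and 0.953). Hyou1 (0.977 and 0.932), Creld2 (0.974 and 0.93) and Mlec, the ER lectin malectin (0.972 and 0.908), came next, ahead of Spout1 (0.962 and 0.874), Tssc4 (0.955 and 0.864), Gm14387 (0.952 and 0.814) and Alpl, an alkaline phosphatase (0.948 and 0.772). Creld2 was among the 8 closest genes in both tissues.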
